A study of Mus musculus with 6 samples.

Results

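Nxf3 and 9 other factors that carry mRNA out of the nucleus were compared between MTT and MPC cells, a pair of mouse pheochromocytoma lines. Such tumors arise from chromaffin cells, which make catecholamines in the adrenal gland. MPC is the parent line, from NF1 knock-out mice. MTT was taken from tumors that MPC cells seeded in liver and grows faster. Both lines share the NF1 background. Neither line was treated. Each line had 3 arrays, and each array read the RNA of 1 sample on the Affymetrix Mouse Gene 1.0 ST design in a single color. The line of a sample is taken from its title, because the tissue field names liver metastasis for all 6 samples, MPC included. The methods call the MTT samples separate but do not say whether they were separate cultures, and do not describe the MPC samples. The p-values therefore measure the spread between these samples, which may be technical. Each line is a single culture model, so a difference between them is a difference between these lines.

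The group of 10 genes was drawn up by name around Nxf3, which was selected on its difference between the lines in these same arrays, the largest of all 19937 genes tested. The values of Nxf3 are therefore a description and carry no test. The other 9 genes were listed for their function with the earlier results known. All 10 had exactly 1 probe set that the platform's annotation ties to 1 symbol, so none was left out and no choice between probe sets was needed. Signals are given as log2 values after RMA, the authors' background correction, quantile normalization and probe summary, and a difference is always MTT minus MPC. Array medians lay between 7.73 and 7.77. Since probes differ in brightness, members are not ranked by level, and signals of other genes serve only as a rough guide to what is dim.

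NXF1 is the general mRNA export receptor. It pairs with the small cofactor NXT1, is handed its cargo by the adaptor ALYREF and the THO proteins of the TREX complex, which load on mRNA as it is made, and carries it through the nuclear pore. XPO1 (CRM1) is the Ran-driven receptor for proteins with a leucine-rich export signal and for some RNAs. Nxf2, Nxf3 and Nxf7 are X-linked relatives of Nxf1 with narrow tissue ranges. Human NXF3 lacks a C-terminal pore-binding domain of NXF1 and is known to leave the nucleus through XPO1, and mouse Nxf3 is known from Sertoli cells of the testis.

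Nxf3 was bright on every MTT array and dim on every MPC array. Its log2 signal was 9.986, 9.996 and 10.004 on MTT arrays 1 to 3 and 6.16, 6.30 and 6.19 on MPC arrays 1 to 3. The lines did not overlap, and the arrays of a line lay within a narrow band. The MTT mean was 9.995 ± 0.01 (SD, n = 3) and the MPC mean 6.22 ± 0.08 (SD, n = 3), which gives a log2 difference of 3.78 or a ratio of 13.7 on the linear scale. The SD of Nxf3 within lines, 0.05, was the same as the median of all genes, 0.05. Leaving out any 1 array gave differences of 3.75 to 3.82.

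The MPC signal of Nxf3 lay in the range of genes that serve another tissue. As a guide to dim signals, the 1027 measured olfactory receptor genes, which serve odor sensing in the nose, had a 5th to 95th percentile range of 3.97 to 7.14 in MPC and 3.93 to 7.17 in MTT cells. In MPC cells 808 of the 1027 were dimmer than Nxf3, whereas in MTT cells all 1027 were. The arrays carry no detection call, so the MPC signal is not shown to exceed background, and background in a signal compresses the ratio.

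**Figure D1:**
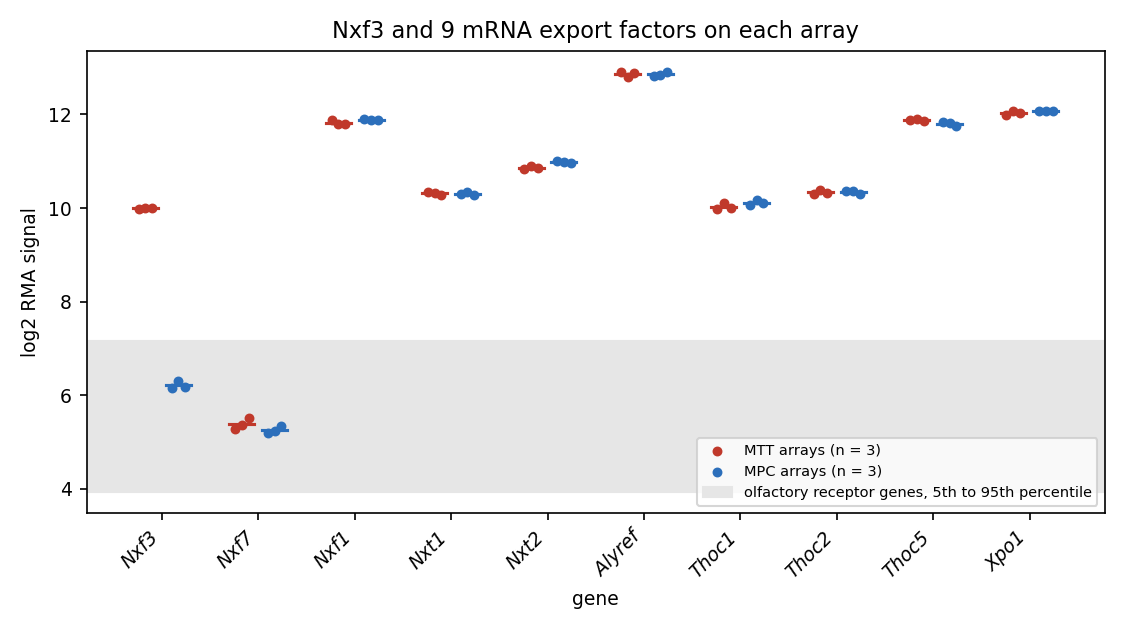
log2 RMA signal (vertical axis) of Nxf3 and 9 export factors (horizontal axis); red points are the 3 MTT arrays and blue points the 3 MPC arrays, short lines are means, and the grey band spans the 5th to 95th percentile of olfactory receptor genes. Nxf3 has a mean of 9.995 in MTT and 6.22 in MPC cells, while the other genes lie at close levels in both lines.

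The relatives of Nxf3 are given with their own values. A gap between them and a gene selected for the largest difference was set in advance and is no result. Nxf7, a relative that is mostly cytoplasmic, read 5.29, 5.37 and 5.53 on the MTT arrays and 5.21, 5.23 and 5.35 on the MPC arrays. These values overlapped and lay within the range of the olfactory receptor genes in both lines. The log2 difference was 0.13 (95% interval -0.02 to 0.28, limma adjusted p = 0.315). Nxf2, a germ cell relative that is not among the 10 genes, also lay in that range, with a mean of 4.72 ± 0.04 (SD, n = 3) over the MTT arrays and of 4.75 ± 0.03 (SD, n = 3) over the MPC arrays. Nxf1 read 11.88, 11.79 and 11.79 on the MTT arrays and 11.90, 11.88 and 11.89 on the MPC arrays. All MPC values were above all MTT values, by a small margin, and the difference of -0.07 (95% interval -0.15 to 0.01) did not pass (limma adjusted p = 0.327). Nxf1 lies on chromosome 19, where the median difference of the 379 genes above the median signal was -0.11, so its value is of the size seen along that chromosome; the part of the chromosome in it was not tested.

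The start regions of these relatives are shown because Nxf1 was above all olfactory receptor genes in both lines and Nxf7 was within their range; the promoter table has no entry for Nxf3 or Thoc1. Each runs from 250 bases before to 50 after the transcription start on its own strand in GRCm38.p6 of RefSeq, 5′ to 3′, with every CG pair in capitals. Nxf1 is at chr19:8756853-8757152 (plus strand) and Nxf7 at chrX:135598732-135599031 (minus strand).
Nxf1: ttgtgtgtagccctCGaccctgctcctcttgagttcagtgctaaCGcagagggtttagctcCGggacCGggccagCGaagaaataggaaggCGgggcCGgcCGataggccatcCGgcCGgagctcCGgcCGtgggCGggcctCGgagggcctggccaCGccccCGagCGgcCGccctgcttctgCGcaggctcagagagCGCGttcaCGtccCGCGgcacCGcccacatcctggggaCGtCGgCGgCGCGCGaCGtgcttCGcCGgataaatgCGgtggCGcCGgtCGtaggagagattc
Nxf7: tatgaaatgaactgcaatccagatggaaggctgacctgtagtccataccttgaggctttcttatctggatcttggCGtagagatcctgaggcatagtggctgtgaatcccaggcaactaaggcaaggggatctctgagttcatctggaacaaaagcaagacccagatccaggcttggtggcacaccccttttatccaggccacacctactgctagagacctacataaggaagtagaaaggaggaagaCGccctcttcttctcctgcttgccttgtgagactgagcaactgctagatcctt
The Nxf1 region holds 38 CG pairs, and 95.2% of the 27025 promoters of different genes hold fewer. The Nxf7 region holds 2, and 14.6% of the promoters hold fewer. The count does not follow the signal in every gene. Nxf2, dim as Nxf7 is, has 20 CG pairs (73.2% hold fewer). The cofactor Nxt2, above all olfactory receptor genes, has 8 (51.0% hold fewer). Motifs were searched on both strands in the 8 members with an entry. GGGCGG, which itself holds a CG, occurred in 5 of the 8 (Nxf1, Nxt1, Alyref, Thoc2 and Xpo1) and in 35.9% of all promoters. CCAAT occurred in 4 of the 8 (Nxt1, Nxt2, Alyref and Xpo1) and in 37.9% of all. TATAAA occurred in Alyref alone among the 8 and in 14.2% of all. CACGTG occurred in none of the 8 and in 7.24% of all, and the letters TGACGTCA in none of the 8 and in 1.88% of all. A match describes letters in the window and no more.

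None of the 9 other factors was called between the lines (limma, Benjamini-Hochberg adjusted p below 0.05 over all genes). By the same rule 7.87% of all genes were called, 3.93% higher and 3.94% lower in MTT cells, so 0 of 9 is close to the background. At an unadjusted p under 0.05 there was 1 gene, Nxt2, beside 20.5% of all genes. The arrays of the lines did not overlap for 4 of the 9 (Nxf1, Nxt2 and Xpo1 lower in MTT cells, Thoc5 higher), beside 27.2% of all genes. The median difference of the 9 was 0.00, beside -0.01 for all genes. Without regard to sign the median was 0.07, beside 0.05 for all genes. The 95% intervals of the 9 differences ran from -0.21 (Nxt2) to 0.28 (Nxf7), and to 0.16 without Nxf7, which are the sizes these arrays allow.

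Of the cofactors, Nxt1, the partner of Nxf1, was level between the lines and Nxt2, its X-linked relative, was a little lower in MTT cells on every array without passing the test. Nxt1 read 10.34, 10.33 and 10.28 in MTT and 10.29, 10.34 and 10.28 in MPC cells, which overlapped closely (log2 difference 0.01, 95% interval -0.07 to 0.09). Nxt2 read 10.83, 10.89 and 10.85 in MTT and 11.01, 10.99 and 10.96 in MPC cells, so that the highest MTT array was below the lowest MPC array. The difference was -0.13 (95% interval -0.21 to -0.05, limma adjusted p = 0.0618). Of 14 alternatives it passed in 2. The limma fit with a mean-variance trend gave an adjusted p of 0.0094 and called 2416 of all 19937 genes. The limma fit that kept only genes above the median signal gave 0.0165 and called 2215 of 11422.

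The adaptor and THO proteins of the TREX complex showed small differences of either sign. Alyref, which links THO to Nxf1, read 12.91, 12.80 and 12.89 in MTT and 12.82, 12.84 and 12.91 in MPC cells, with the arrays interleaved (log2 difference 0.01, 95% interval -0.09 to 0.11). Thoc2, the scaffold of THO, read 10.30, 10.38 and 10.33 in MTT and 10.35, 10.36 and 10.31 in MPC cells (log2 difference 0.00, 95% interval -0.09 to 0.08). Both genes thus lay within the spread of the arrays, and their sign turned under several alternatives. Thoc1 read 9.99, 10.10 and 9.99 in MTT and 10.07, 10.18 and 10.10 in MPC cells. The second array of each line was the highest, and the difference was -0.09 (limma adjusted p = 0.325). Thoc5, a THO subunit that binds Nxf1, read 11.88, 11.90 and 11.87 in MTT and 11.84, 11.82 and 11.75 in MPC cells. All MTT arrays were above all MPC arrays by a small margin, with a difference of 0.08 that did not pass (limma adjusted p = 0.278).

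Xpo1, the export receptor that human NXF3 uses, was near its MPC level in MTT cells. It read 11.99, 12.07 and 12.04 in MTT and 12.07, 12.08 and 12.08 in MPC cells. MTT arrays were slightly lower, the difference was -0.04 (95% interval -0.12 to 0.04) and it did not pass (limma adjusted p = 0.542).

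**Figure D2:**
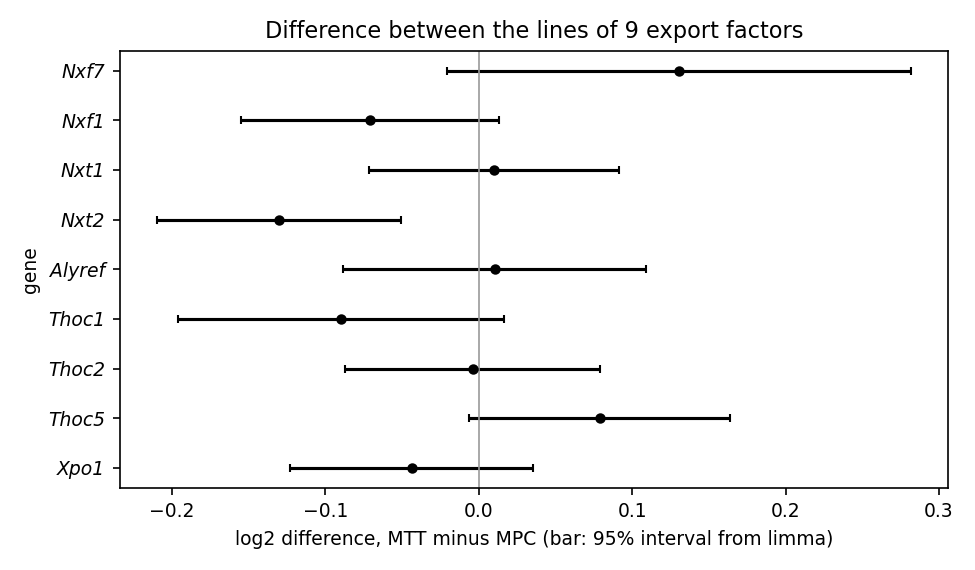
log2 difference between the lines (horizontal axis, MTT minus MPC) of the 9 export factors other than Nxf3 (vertical axis); points are limma estimates over 3 arrays a line and bars are 95% intervals. All bars lie between -0.21 and 0.28, and the bar of Nxt2 alone does not reach 0.

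The rest of the export pathway was read from 8 lists fixed by name, which hold 68 genes besides the 10 members. Of these, 60 had a probe set with 1 symbol; Zc3h11a, Srsf7, Magoh, Magohb, Upf3a, Upf3b, Tpr and Ddx19a were not analysed here. Of the 60, 3 were higher and none was lower in MTT cells by the same limma rule, beside 3.93% and 3.94% of all genes, and 10 had an unadjusted p under 0.05, beside 20.5% of all genes. Their median difference was -0.01, as for all genes. Without regard to sign the median was 0.04, beside 0.05 for all genes. Their differences ran from -0.17 to 0.24. The arrays of the lines did not overlap for 19 of the 60, beside 27.2% of all genes.

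The 3 genes that were higher belong to different steps of export. Nup153, a protein of the basket on the nuclear side of the pore, read 11.69, 11.66 and 11.66 in MTT and 11.43, 11.44 and 11.43 in MPC cells, a wide gap for such tight arrays (log2 difference 0.24, standard error 0.03, limma adjusted p = 0.00298). Thoc3, a THO subunit, read 12.45, 12.37 and 12.39 in MTT and 12.21, 12.20 and 12.14 in MPC cells (log2 difference 0.22, limma adjusted p = 0.0106). With ordinary variances this call was lost (adjusted p = 0.0554). Cetn3, a centrin known at the centrosome and in TREX-2, read 10.91, 10.94 and 10.87 in MTT and 10.74, 10.76 and 10.68 in MPC cells (log2 difference 0.18, limma adjusted p = 0.026). The call of Cetn3 was lost with ordinary variances (adjusted p = 0.0793). It was also lost when any 1 array other than MTT replicate 3 was left out (adjusted p over the 6 fits 0.0468 to 0.108).

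All 3 lie on chromosome 13, and they are all the genes of the 60 on that chromosome; none of the other 57 was called. Of 732 genes tested on chromosome 13, 249 were called higher, 12 lower and 471 not called, and among the 407 above the median signal the median difference was 0.18. The values of Nup153, Thoc3 and Cetn3 are of that size. The part of the chromosome in these calls was not tested.

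**Figure D3:**
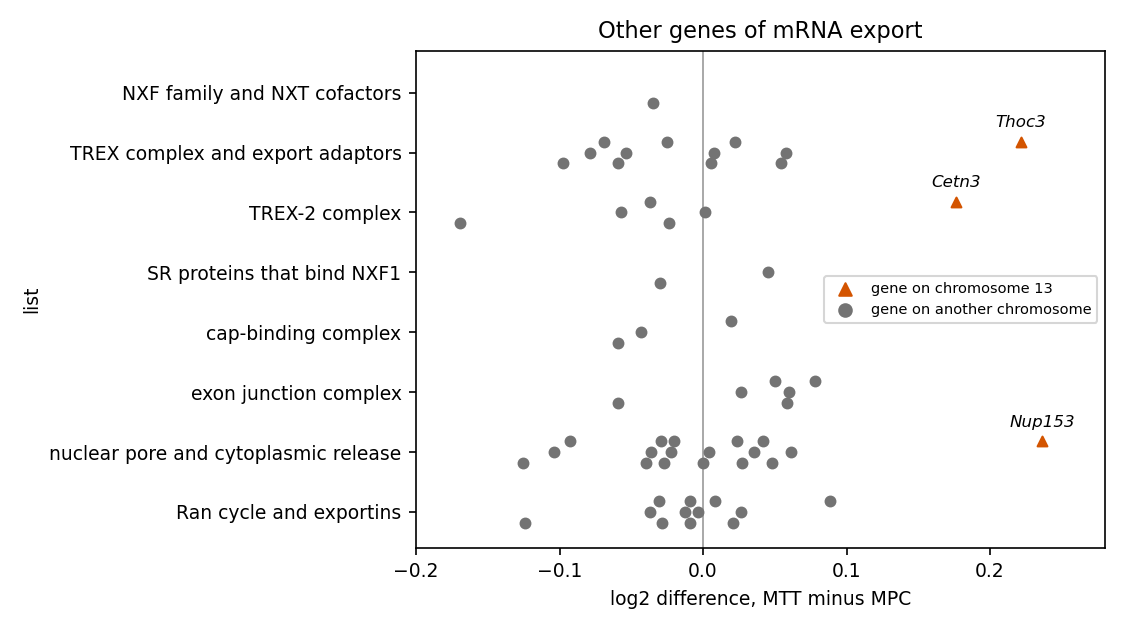
log2 difference between the lines (horizontal axis, MTT minus MPC) of the 60 other measured genes of mRNA export, by list (vertical axis); each symbol is 1 gene, and orange triangles mark genes of chromosome 13. Thoc3, Cetn3 and Nup153, between 0.18 and 0.24, are the 3 genes called and the 3 triangles.

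No gene was called in the other lists. By the same rule 7.87% of all genes were called, so no call in lists this short is close to the background. In the exon junction complex, which marks spliced mRNA, 0 of 6 measured genes passed. Casc3 had a difference of 0.08 (limma adjusted p = 0.203) and Rnps1 one of 0.06 (limma adjusted p = 0.371). In the cap-binding complex, 0 of 3 passed, with -0.06 for Ncbp3 and -0.04 for Ncbp1. Of the SR proteins that bind Nxf1, Srsf1 had a difference of 0.05 and Srsf3 one of -0.03, and neither passed. Of 12 genes of the Ran cycle and exportins besides Xpo1, none passed. Xpo4, an importer and exporter of a few proteins, had a difference of -0.12 (limma adjusted p = 0.09) and Ranbp3, a cofactor of Xpo1, one of 0.09 (limma adjusted p = 0.232). Of the 18 pore and release genes 17 did not pass, of 6 TREX-2 genes 5, and of 12 TREX and adaptor genes 11. Within TREX-2, Cetn2, a relative of Cetn3 on chromosome X, had a difference of the other sign, -0.17 (limma adjusted p = 0.0636). Of the alternatives it passed in 3. The limma adjusted p was 0.0238 with a mean-variance trend and 0.0194 with genes above the median signal only. With the replicate number as a block it was 0.0403.

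The genes beside Nxf3 on chromosome X are given with their own values. Nxf3 was selected for the largest difference of all genes, so a gap to each neighbor was set in advance and is no result. The 10 nearest measured genes on each side were taken in the order of the RefSeq table; Nxf7 is among them. Of the 20, 1 was higher and 1 lower in MTT cells by limma, beside 3.93% and 3.94% of all genes. The differences of the 20 ran from -0.24 to 0.22 with a median of -0.01. On the whole chromosome, 39 of 739 genes were higher and 28 lower. The mean signal of 13 of the 20 lay at or below the 95th percentile of the olfactory receptor genes, where a difference between the lines could be masked by background.

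Bex2, the nearest gene on one side and of a family of small proteins of nervous tissue, read 9.31, 9.28 and 9.19 in MTT and 9.07, 9.10 and 9.10 in MPC cells. It rose by 0.17 on the log2 scale (limma adjusted p = 0.0425), and the call was lost when any 1 array other than MTT replicate 3 was left out (adjusted p over the 6 fits 0.0257 to 0.148). It was also lost with ordinary variances (adjusted p = 0.12) and with arrays centred on their median (adjusted p = 0.0569). Bex4, the nearest on the other side, was dim in both lines, with means of 4.39 ± 0.29 (SD, n = 3) on the MTT arrays and 4.52 ± 0.26 (SD, n = 3) on the MPC arrays. The probe set identifiers of Bex4 and of Armcx5, another of the 20, fall outside the block of numbers of the other 18, and whether they read the X-linked genes was not tested. Tceal8, the next gene, fell from 9.80, 9.82 and 9.78 in MPC to 9.55, 9.64 and 9.50 in MTT cells. Its difference was -0.24 (limma adjusted p = 0.0132), and the call was lost without MTT replicate 1 (adjusted p = 0.0563), without MPC replicate 2 (adjusted p = 0.0533) and with ordinary variances (adjusted p = 0.0792). Bex and Tceal genes are families of close copies, so their probe sets may share signal.

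**Figure D4:**
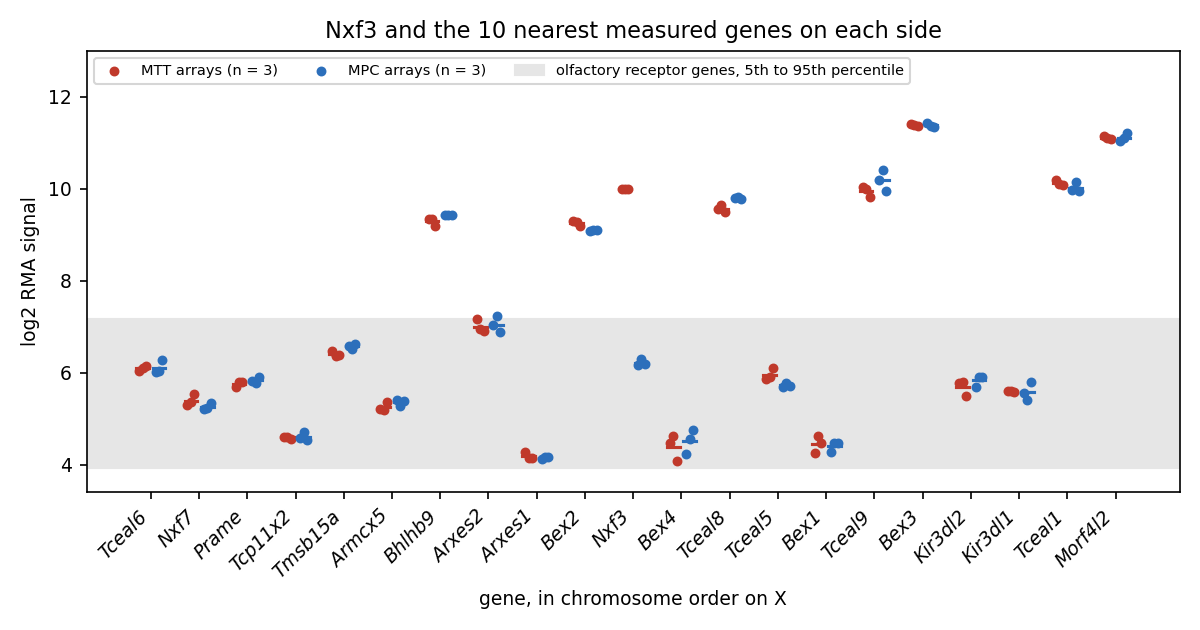
log2 RMA signal (vertical axis) of Nxf3 and the 10 nearest measured genes on each side, in chromosome order on X (horizontal axis); red points are the 3 MTT arrays, blue points the 3 MPC arrays, short lines are means and the grey band spans the 5th to 95th percentile of olfactory receptor genes. Nxf3, selected for its difference, stands far apart between the lines. Of its 20 neighbors, 13 lie at or below the top of the band.

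Mouse Nxf3 is known from Sertoli cells of the testis. No measured Sertoli or germ cell marker was called higher in MTT cells, beside 3.93% of all genes. For so few markers this is close to the background. Of 9 measured Sertoli cell markers none was higher in MTT cells and Cldn11, a tight junction protein also made by other cells, was lower, with means of 10.07 ± 0.04 (SD, n = 3) on the MTT arrays and 10.53 ± 0.03 (SD, n = 3) on the MPC arrays. The mean log2 signal of the 9 was 7.69 to 7.76 over the MTT arrays and 7.72 to 7.81 over the MPC arrays, with Fshr dimmest at 6.67 and 6.68. Of 10 germ cell markers none was called, with means of 5.87 to 5.92 and 5.86 to 5.92, Sycp3 dimmest at 4.24 and 4.26 and Prm2 brightest at 7.95 and 7.92. The mean over both lines was above the 95th percentile of the olfactory receptor genes for 6 of the 9 Sertoli and 2 of the 10 germ cell markers. For the others a difference could be masked by background.

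All measured chromaffin cell markers but Pnmt had means above the 95th percentile of the olfactory receptor genes in both lines. The mean of 13 measured chromaffin markers was 11.30 to 11.34 over the MTT and 11.32 to 11.34 over the MPC arrays, from Th, which starts catecholamine synthesis, at 13.46 and 13.49, down to Pnmt at 6.97 and 7.08, within the range of the olfactory receptor genes. Of the 13, 4 were called, beside 7.87% of all genes: Slc18a1 (0.27) and Gata3 (0.19) were higher and Slc6a2 (-0.25) and Chgb (-0.15) lower in MTT cells, as log2 differences. None of the markers of hepatocytes (7 measured, brightest Apoa1 and dimmest Cyp2e1), adrenal cortex (7, Nr5a1 and Hsd3b1), leukocytes (6, Cd68 and Lyz2) or endothelium and fibroblasts (7, Col1a1 and Lum) was called between the lines. Of these, 1 hepatocyte, 2 adrenal cortex, 2 leukocyte and 4 endothelium and fibroblast markers had a mean above that 95th percentile. In arrays of whole cultures, fewer cells with a transcript and less of it per cell cannot be told apart, so the arrays do not say whether all MTT cells carry the Nxf3 signal.

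The genes whose profile lay nearest to that of Nxf3 are listed as a description. Likeness was the root mean square distance over the 6 arrays between log2 values centred on each gene's own mean, a measure set mainly by the difference between the lines. Nxf3 had been selected for the largest difference, so a gap to every other gene was set in advance and is no result. The nearest were Camk4, a calcium-dependent kinase, at 0.77, Naalad2, a peptidase, at 0.90, Nnat, an imprinted gene, at 1.03, Mgat4c, a glycosyltransferase, at 1.14, and Zfp57, a zinc finger protein that maintains imprints, at 1.19. The median distance of all other genes was 1.89. The MPC means of Camk4 (6.77), Naalad2 (5.10) and Mgat4c (6.46), like that of Nxf3, lay under the 95th percentile of the olfactory receptor genes, and those of Nnat (10.33) and Zfp57 (8.19) above it, so the sizes of these differences are not ranked. Camk4, with the closest profile, read 8.94, 9.10 and 9.03 in MTT and 6.71, 6.98 and 6.62 in MPC cells, a log2 difference of 2.25 beside 3.78 for Nxf3.

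**Figure D5:**
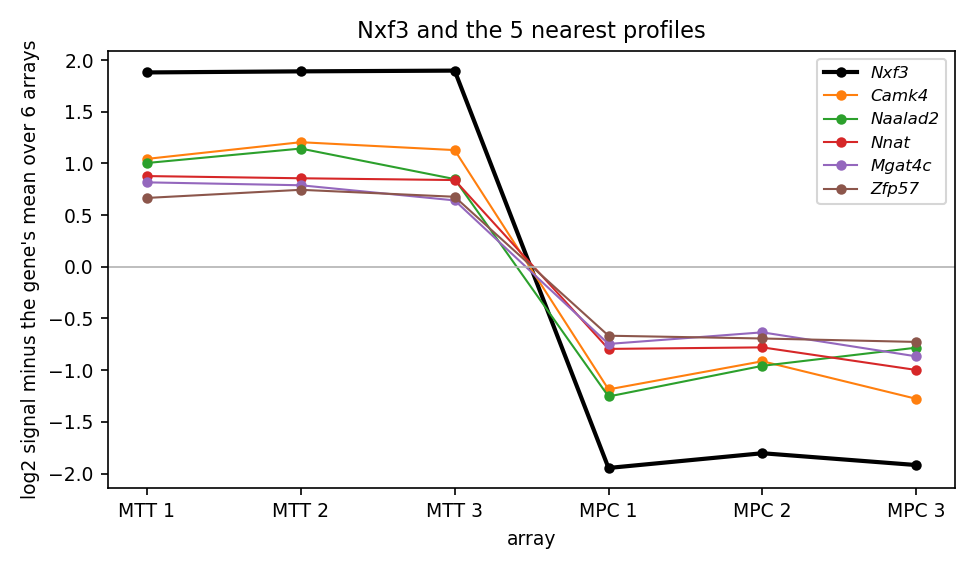
log2 signal minus each gene's mean over the 6 arrays (vertical axis) on the MTT and MPC arrays (horizontal axis) for Nxf3 (thick black line) and the 5 genes with the nearest profiles; points are arrays. All 6 genes step down from MTT to MPC arrays, with a measured step of 3.78 for Nxf3 and 2.25 for Camk4, both from MPC signals within the range of the olfactory receptor genes.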

How the data were processed

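RNA of 3 MTT and 3 MPC samples was read on 6 Affymetrix arrays. The authors deposited log2 values of 34760 probe sets after RMA; the methods also name gene-wise Z-scores, which these values do not hold. RMA and Affymetrix Expression Console appear in the submitters' processing notes; their versions and the genome build were not given in the sources used here.

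Of the probe sets, 21640 had 1 gene symbol (1321 had several and 11799 none), 21553 of them matched the RefSeq table of GRCm38.p6, used for names, chromosomes and gene order, and the brightest per gene gave 19937 genes. Lines were compared with limma 3.58.1 (lmFit and eBayes, two-sided, Benjamini-Hochberg over all genes, threshold 0.05) in R 4.3.3 with data.table (version 1.17.8), tested on simulated data first. Figures used Python 3.11.15 and matplotlib 3.10.9. Precision is limited by the number of arrays.

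The members, gene lists, tests and alternatives were chosen with earlier results of these data known. Named are all members, every pathway gene or neighbor called, the 2 of smallest p in a list with no call, the nearest neighbors, the 5 nearest profiles and the brightest and dimmest markers; Nxf2 and Cetn2 are named besides, the latter after its values were seen. The authors' screen and the human arrays were not analysed here. The alternatives tried were a mean-variance trend, ordinary variances, a replicate block, averaged probe sets per gene, genes above the median signal, all probe sets, 2 further normalizations and leaving out each array.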

Additional observations from a re-analysis of the deposited data

How the results depend on the processing

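The log2 difference of Nxf3 moved by less than the spread between arrays under every alternative run, with 3.75 to 3.82 without 1 array. Of the 9 other members, 1 was called (Nxt2, lower) with a mean-variance trend, beside 2416 of all 19937 genes. Among the 8 members above the median signal 1 was called (Nxt2, lower), beside 2215 of 11422 genes. Under the other alternatives 0 were called. Near 0, signs turned. Without 1 array, Nxt1 ran from -0.0037 to 0.0294, Alyref from -0.0114 to 0.0444 and Thoc2 from -0.0258 to 0.0146, and Thoc2 was 0.00404 after cyclic loess and 0.00375 with arrays centred on their median.

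Of the 60 other pathway genes, 1 was called with ordinary variances (1 higher, Nup153), beside 824 of all 19937 genes. With a mean-variance trend 7 were called (4 lower: Cetn2, Nup88, Nup133 and Xpo4), beside 2416 of all genes. Among the 59 above the median signal 6 were called (3 lower: Cetn2, Nup133 and Xpo4), beside 2215 of 11422 genes. Without 1 array 2 or 3 were called (2 or 3 higher, 0 lower), beside 891 to 1276 of all genes. Of the 20 neighbors, 0 were called with ordinary variances (0 higher, 0 lower). After cyclic loess 2 were higher, beside 940 of all 19937 genes. Without 1 array 0 to 2 neighbors were called (0 or 1 higher, 0 or 1 lower). Over all genes, 824 were called with ordinary variances (428 higher, 396 lower) and 2416 with a mean-variance trend (1302 lower). Among the 11422 genes above the median signal 2215 were called (1193 lower). Without 1 array 891 to 1276 of all genes were called, 462 to 617 higher and 429 to 659 lower. The cause of these shifts was not tested; the fits without 1 array have fewer samples.

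The titles number the samples of each line 1 to 3. Deviations of same-numbered arrays from their line's mean correlated at 0.116, 0.0735 and 0.249, and those of different numbers at -0.161 to 0.0659. Each array thus correlated best with its own number, for replicate 2 by a small margin (0.0735 beside 0.0659 and 0.0595). Deviations within a line cancel out, so these correlations are not independent. The main fit did not take the numbers as pairs, so the fit with a block is given beside it. What the numbers share was not tested. With the replicate number as a block 1501 genes were called, 4 pathway genes (1 lower, Cetn2, adjusted p = 0.0403), 1 neighbor (0 higher, 1 lower; Bex2 had an adjusted p = 0.0605), and none of the 9 members. Among the 9, the limma adjusted p with the block was lowest for Nxt2 (0.0856) and Nxf7 (0.0885), beside 0.0618 and 0.315 in the main fit. Without detection calls, signals in the range of the olfactory receptor genes carry no bound.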
